A study of Homo sapiens with 6 samples.

Results

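In KMS-11 cells, 496 accessible regions were strong in every control library and weak or not listed in every ATF4 knockdown (ATF4KD) library. They were drawn from 208856 merged regions on chromosomes 1 to 22, of which 57378 were strong in every control, so that 0.864% of the strong regions were members. The members were chosen by the authors' deposited −log10 q, the caller's significance of a peak against its local background. It moves with depth and is not the height of the peak over its surroundings. Peaks with a −log10 q of at least 2 were merged over the 6 lists where they overlapped by 1 bp or more. A member had a highest −log10 q of at least 10 in each control library and below 2, or no listed peak, in each ATF4KD library. The difference between the groups therefore made the members and is described here without a test.

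The 3 ATF4KD libraries carry the treatment label LentiV2_ATF4g3 and the 3 control libraries the label LentiV2. Both groups are the established human line KMS-11, of plasma cell myeloma, and both have the genotype label WT, so the lentiviral vector was shared and a single guide against ATF4 was used. The labels give neither the mode of action of the guide nor the time after transduction, and peak lists do not show the level of ATF4. ATAC-seq finds open chromatin with a transposase, Tn5, that cuts accessible DNA and joins sequencing adapters to it. The study's title concerns enhancers activated by ATF4 with p52, the product of NFKB2, through p300 and CBP, and the regulation of BACH1.

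Plasma cells secrete antibody, and myeloma is their cancer. ATF4 is a bZIP transcription factor whose protein accumulates under amino acid shortage and stress of the endoplasmic reticulum, and it dimerises mainly with C/EBP proteins to switch on genes of amino acid supply. Enhancers are stretches of open DNA, often far from genes, where such factors bind and recruit the acetyltransferases p300 and CBP. All 9 plasma cell markers, among them IRF4, XBP1 and TNFRSF17, were open in each of the 6 libraries, counted as a peak at 10 or more on that scale within 1 kb of a gene end. Of the B cell markers, PAX5, CIITA and EBF1 had such a peak in all 6 libraries, and MS4A1 and CD22 had one in none. Some markers of other cells were also open in all 6 libraries. These were CD3E, CD3D and NCAM1 of T and NK cells and EPCAM, KRT18, KRT8 and COL1A1 of epithelial and stromal cells. CD5 of T and NK cells and PDGFRB of epithelial and stromal cells had such a peak in none. In ATF4KD library 1, 3 of 5 T and NK markers had one, against 4 in each other library. Of 5 myeloid markers, 0 had such a peak in any ATF4KD library. MPO and ITGAM had one in each control, and CD14, CSF1R and LYZ had one in none of the 6 libraries. The part of such cells in the results was not tested.

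The ATF4KD libraries had a lower background pileup and lower peaks throughout the genome. The library-wide background pileup was 2.51, 2.15 and 2.51 in ATF4KD libraries 1 to 3 and 3.19, 2.79 and 3.52 in controls 1 to 3. It is the most common local background that the caller used at listed summits. It served as a measure of depth, and tags away from peaks were not counted. Summits on the chromosomes used numbered 213316, 215290 and 212973 in ATF4KD and 230030, 227293 and 217970 in the controls. Distinct peaks went the other way, with 164751, 166049 and 158705 in ATF4KD and 144978, 155566 and 130496 in the controls. Even after division by the library-wide rate, the 59853 regions at 2 or more in all 6 libraries had an ATF4KD level that was a median of 0.686 times the control level (quartiles 0.584 and 0.802). Depth, signal over background and the guide moved together with the groups and cannot be told apart. In bulk libraries, fewer cells with an open site and less opening per cell cannot be told apart either.

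A member can overlap the DNA just before an annotated gene start. The sequences of 4 such cases among protein-coding genes are shown because they are the promoters that members covered in part. Each is the 250 bases before a RefSeq start on GRCh38.p14, written 5′ to 3′ on the gene's strand. Capitals mark, on either strand and with overlaps joined, matches to TGATG (the core of the ATF4-C/EBP site), TGATGNAA (that site in full), TGACGTCA (CRE), TGANTCA (AP-1), TTGCNNAA (C/EBP) and TGCTGA (a part of the MAF site).
GTPBP2, chr6:43627342-43627591, minus strand: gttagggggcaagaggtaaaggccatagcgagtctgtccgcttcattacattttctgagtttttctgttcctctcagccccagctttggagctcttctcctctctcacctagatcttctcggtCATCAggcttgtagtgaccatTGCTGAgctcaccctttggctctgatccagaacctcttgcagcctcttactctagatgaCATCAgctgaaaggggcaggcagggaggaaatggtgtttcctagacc
SIN3A, chr15:75455816-75456065, minus strand: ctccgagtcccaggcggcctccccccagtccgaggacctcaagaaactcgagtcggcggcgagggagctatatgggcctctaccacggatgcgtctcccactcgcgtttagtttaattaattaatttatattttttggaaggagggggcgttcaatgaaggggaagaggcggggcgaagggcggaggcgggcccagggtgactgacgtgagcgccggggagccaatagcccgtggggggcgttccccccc
TUBB3, chr16:89921675-89921924, plus strand: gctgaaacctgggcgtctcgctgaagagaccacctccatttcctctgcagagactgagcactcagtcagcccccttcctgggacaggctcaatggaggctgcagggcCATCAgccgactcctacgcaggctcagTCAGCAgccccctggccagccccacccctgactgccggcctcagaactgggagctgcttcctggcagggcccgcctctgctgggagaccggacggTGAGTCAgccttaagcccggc
CCDC183, chr9:136796088-136796337, plus strand: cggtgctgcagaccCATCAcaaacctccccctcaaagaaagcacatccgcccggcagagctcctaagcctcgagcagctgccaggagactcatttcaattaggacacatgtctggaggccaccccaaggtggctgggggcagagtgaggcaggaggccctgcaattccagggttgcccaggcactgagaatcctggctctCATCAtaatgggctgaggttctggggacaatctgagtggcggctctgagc
The members covered 215, 125, 204 and 175 of the 250 bases at GTPBP2, SIN3A, TUBB3 and CCDC183. TGATG or its complement was in the GTPBP2, TUBB3 and CCDC183 windows, and 28.8% of the 33470 RefSeq windows held it. The full TGATGNAA was in none of these 4 and in 3.17% of all windows. Members also overlapped 3 windows that are not printed, and all 3 held both TGATGNAA and the C/EBP letters TTGCNNAA, which were in 9.06% of all windows. Of these 3, 2 are overlapping windows of GYPB, a glycophorin gene with near-identical copies, and 1 belongs to an annotated gene without an official symbol. A member covered the latter window whole, but only 79 and 44 of the 250 bases of the GYPB windows. In both GYPB windows the TGATGNAA match lay outside the covered bases, and a TTGCNNAA match lay inside them. An AP-1 match stood at the end of the TUBB3 window, against 6.56% of all windows, and a MAF match was in the GTPBP2 and TUBB3 windows, against 13.9%. SIN3A held none of the 6. These are letters in windows and not shown to be bound. The annotated GTPBP2 gene runs past this start, which is an inner one.

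In the ATF4KD libraries, 307 of the 496 members (61.9%) had no listed peak in any library, 115 had a weak one in 1 library, 60 in 2 and 14 in all 3. ATF4KD library 1 listed 87 members, library 2 listed 99 and library 3 listed 91. At these listed sites the median ATF4KD pileup was 9, 8 and 9 tags, or 3.59, 3.72 and 3.59 times the library-wide rate, and the same sites in the controls had a median of 11.4, 11.1 and 11.4 times. The median ratio of ATF4KD to control level there was 0.324, 0.345 and 0.333. These sites were chosen to be low, so the ratio describes them and supports nothing further.

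In the controls, the members had a median −log10 q of 16.4, 19.8 and 16.0 and a median pileup of 37, 39 and 37 tags. The lowest of the 3 control values had a median of 12.7 and ran to 49.2. Control 2 was the highest library at 280 members, control 1 at 115 and control 3 at 101. The SD of the 3 control pileups was a median of 12.1% of their mean (quartiles 7.66% and 17.8%).

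Members were strong by the rule but stood at the low end of the strong regions. Of the 3540 regions with a lowest control −log10 q from 10 to 12, 194 (5.48%) were members. The share was 3.44% from 12 to 15, 1.79% from 15 to 20, 0.821% from 20 to 25 and 0.654% from 25 to 30. It was 0.217% from 30 to 40 and 0.166% from 40 to 50, where 7 of 4212 regions were members. None of the 12245 regions from 50 to 100 and none of the 15301 at 100 or more was a member. Over the same bands, the share at 2 or more in all 3 ATF4KD libraries went up, starting at 58.8%. Of all 57378 strong regions, 52572 (91.6%) were at 2 or more in all 3 ATF4KD libraries, and these are called kept regions. A further 3179 (5.54%) were at 2 or more in 2 of them and 1131 (1.97%) in 1.

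**Figure D1:**
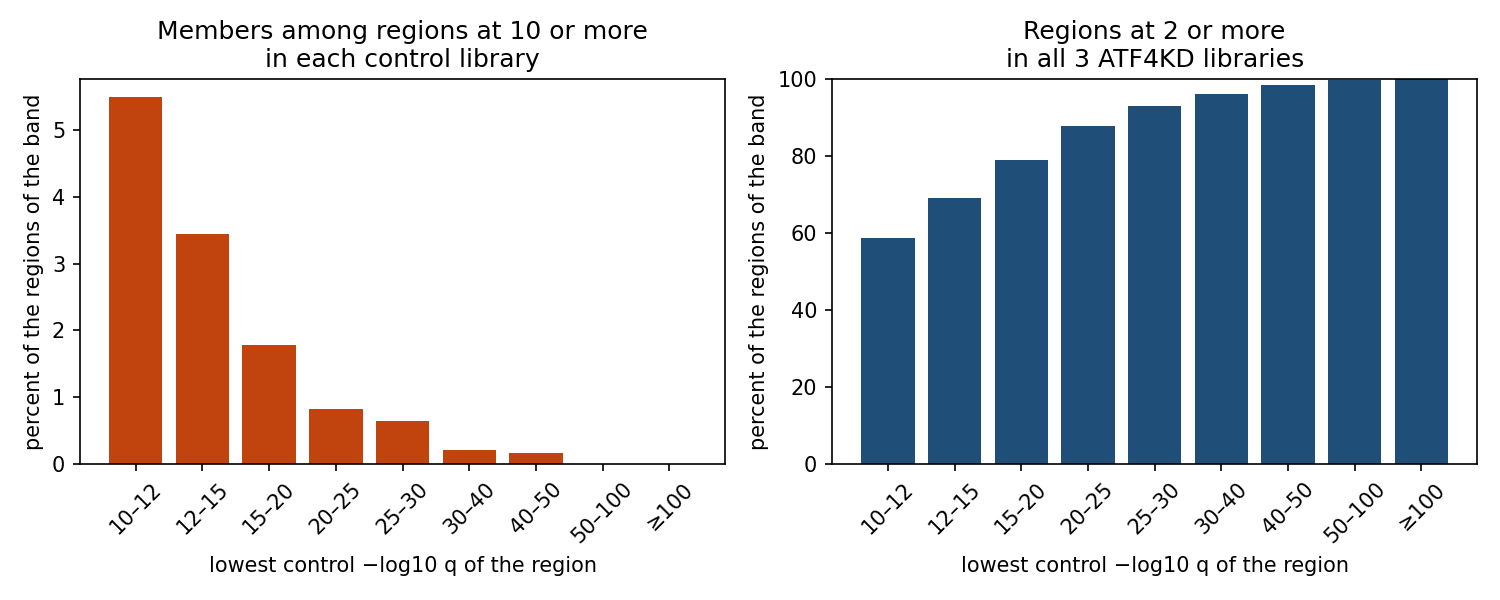
Percent of regions in each band of the lowest control −log10 q that were members (left) and that stood at 2 or more in all 3 ATF4KD libraries (right); bars start at 0. The member share is 5.48% in the band from 10 to 12 and 0 from 50 upwards.

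The reverse rule, at least 10 in each ATF4KD library and below 2 or not listed in each control, found 1 of 37629 regions (0.00266%). It lay inside DUSP10, a phosphatase of stress-activated MAP kinases, at chr1:221712979-221713417. Its −log10 q was 17.3, 21.2 and 13.7 in the ATF4KD libraries, with 34, 37 and 30 tags, and no control listed a peak there. The part of depth, which was higher in the controls, in this count and in the 496 was not tested.

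**Figure D2:**
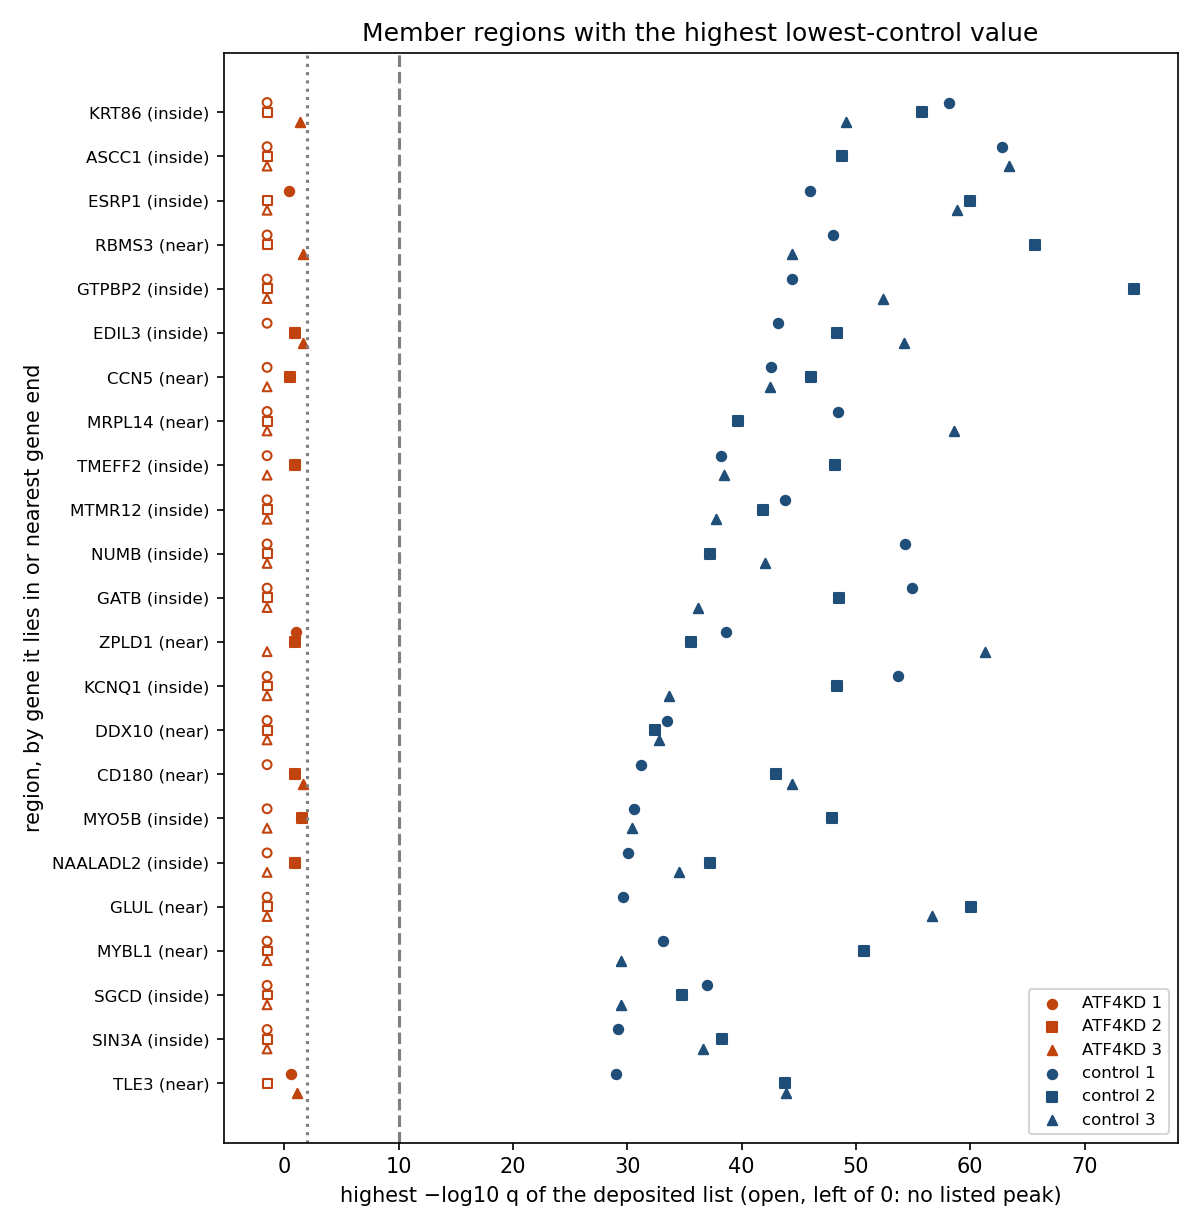
Highest −log10 q in each of the 6 libraries at 23 of the 24 members with the highest lowest-control value; ATF4KD libraries are orange and controls blue, symbols stand for libraries 1 to 3, and open symbols left of 0 mark libraries with no listed peak. The dotted line at 2 and the dashed line at 10 are the thresholds of the rule, so the gap between the groups is part of the choice.

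Of the 24 members with the highest lowest-control value, 12 had no listed peak in any ATF4KD library and 15 lay inside a protein-coding gene. The first was inside KRT86, a hair keratin gene, at chr12:52279977-52280758. ATF4KD library 3 listed it at 1.36 with 16 tags and libraries 1 and 2 did not list it, against 58.1, 55.8 and 49.2 in the controls with 109, 99 and 96 tags. Another member lay 131 kb away in the same keratin cluster, 20.1 kb from KRT80, at chr12:52148539-52148929. That one was just under the threshold in the ATF4KD libraries, at 1.96, 1.9956 and 1.56 with 22, 20 and 23 tags, against 40.1, 32.2 and 28.2 in the controls with 96, 79 and 82 tags. It is the member with the highest ATF4KD value, while at KRT86 the tag number was lower in ATF4KD and higher in the controls.

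The other top members are given by the product of the gene, an order for reading that was not tested as a theme. Inside EDIL3, which encodes a matrix protein that binds integrins, the region at chr5:84197408-84198347 was not listed in ATF4KD library 1 and had 7 and 9 tags in libraries 2 and 3, against 54, 55 and 65 tags in the controls. CCN5, a gene of the CCN matrix proteins, had a member 0.976 kb away at chr20:44728787-44729302. It had 9 tags in ATF4KD library 2 and no listed peak in the others, against 66, 68 and 72 tags in the controls. TMEFF2, which encodes a transmembrane protein, held a member with 7 tags in ATF4KD library 2 alone, against 52, 56 and 52 in the controls. The nearest gene to a member at chr5:67581117-67581683 was CD180, a Toll-like receptor homologue of B cells, but it was 384 kb away. That member had 7 and 9 tags in ATF4KD libraries 2 and 3 and was not listed in library 1, against 43, 52 and 56 tags in the controls.

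GTPBP2, which encodes a GTPase acting on stalled ribosomes, held the member with the highest single control value. No ATF4KD library listed it, and the controls had −log10 q values of 44.4, 74.3 and 52.3 with 177, 217 and 198 tags. A member 116 kb from GLUL, the glutamine synthetase gene, at chr1:182261510-182261982 was not listed in any ATF4KD library and had 110, 151 and 152 tags in the controls. GATB, a gene of a mitochondrial amidotransferase, held a member of 1156 bp with no listed ATF4KD peak and 63, 55 and 49 control tags. In the ASCC1 gene, the member at chr10:72208506-72209159 was also listed in no ATF4KD library and had 69, 56 and 73 tags in the controls.

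SIN3A encodes the scaffold of a histone deacetylase complex, and its member had no listed ATF4KD peak and 209, 237 and 244 tags in the controls, the highest mean of all members. NUMB, an inhibitor of Notch signalling, had none in ATF4KD and 62, 46 and 54 tags in the controls. TLE3, a corepressor gene, lay 247 kb from a member with 7 and 8 tags in ATF4KD libraries 1 and 3 and no listed peak in library 2, against 45, 53 and 56 tags in the controls. ESRP1, a splicing regulator of epithelial cells, held a member with 7 tags in ATF4KD library 1 alone, against 68, 72 and 81 in the controls. MYBL1, a MYB family gene, lay 2.11 kb from a member with no listed ATF4KD peak and 156, 185 and 157 control tags.

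KCNQ1, a potassium channel gene, held one with no listed ATF4KD peak and 145, 135 and 122 control tags. MTMR12, a myotubularin family gene, held one with none in ATF4KD and 88, 84 and 81 in the controls. MRPL14, of the mitochondrial ribosome, was 69.3 kb from one with none in ATF4KD and 69, 60 and 85 in the controls. A further 6 were in MYO5B (a motor protein gene), NAALADL2 and SGCD (a sarcoglycan gene), and near RBMS3, ZPLD1 and DDX10 (an RNA helicase gene). At these 6, the listed ATF4KD peaks had 7 to 11 tags and the controls 42 to 88, with SGCD and DDX10 listed in no ATF4KD library.

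The members were split into 2 kinds by the local background around them in the controls. On flat ground, with a local background under 1.5 times the library-wide rate, lay 296 members (59.7%). The other 200 (40.3%) stood on raised ground, with a median background of 5.73 times the rate and a highest of 27.5 times. Flat members made up 1.41% of the 21062 strong regions on flat ground, and raised members 0.551% of the 36316 on raised ground. Strong regions on flat ground were weaker, with a median lowest control −log10 q of 23.1 against 81.3 on raised ground. Flat ground held 59.7% of members and 34.1% of kept regions. Where the lowest control value was from 10 to 15, it held 61.5% of members and 71.9% of kept regions. The median width was 546.5 bp for flat members and 305.5 bp for raised members. In all kept regions the order was the other way, with 677 bp on flat and 1021 bp on raised ground. It was not so where the lowest control value was from 10 to 15. There, kept regions had medians of 602 bp on flat and 589.5 bp on raised ground, and members 505 and 288 bp. Flat members lay farther from a gene end, at a median of 42107 bp, than raised members, at 4385 bp. The distance to the nearest region of all 6 libraries was a median of 17.4 kb for flat members and 1.63 kb for raised ones. Both distances had the same order in flat and raised kept regions, so it is not particular to members. Their medians were 38734 and 7708.5 bp to a gene end, and 17.3 and 6.18 kb to a region of all 6 libraries. Raised members had more tags in the controls, with a median mean pileup of 73.8 against 30.3, as raised kept regions did, with 141 against 47.3. Raised members nevertheless stood less far above their surroundings than flat members. Their median fold over local background was 3.55, 3.88 and 3.42 in controls 1 to 3, against 6.92, 8.17 and 6.54 for flat members.

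**Figure D3:**
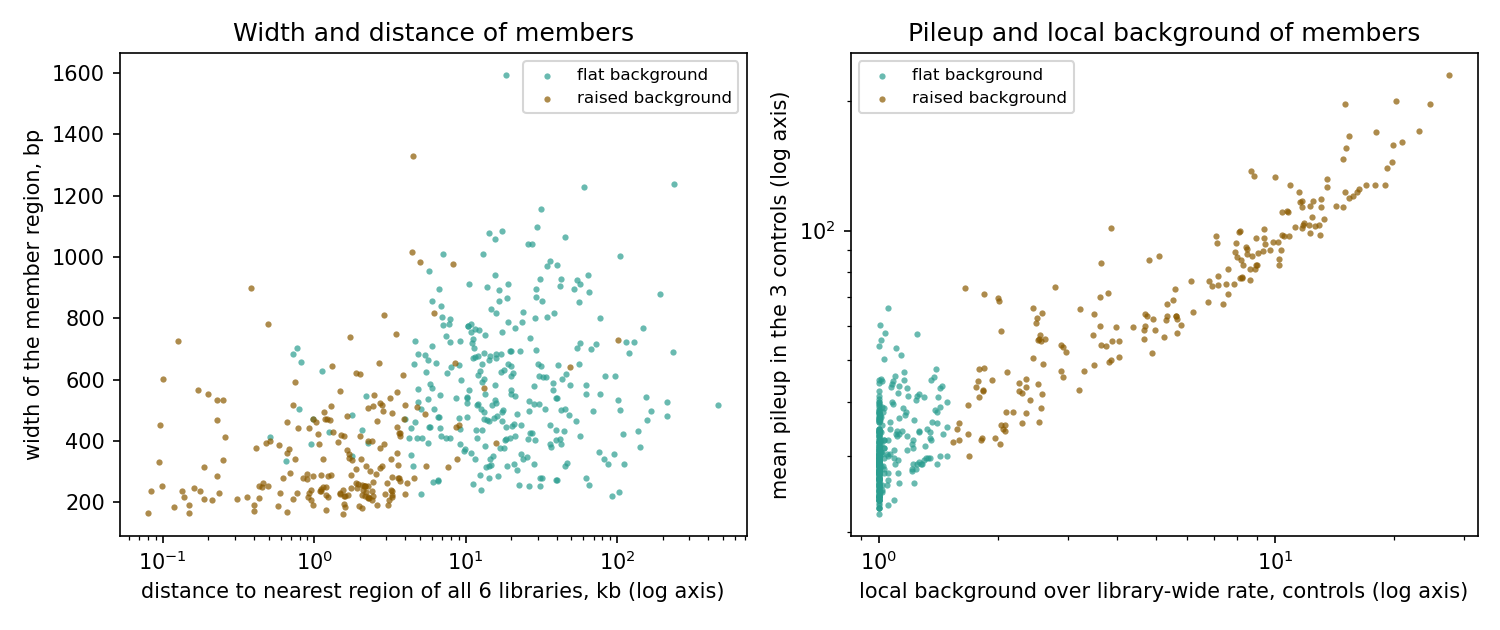
Each point is a member, on flat or raised local background. Left, width in bp against the distance to the nearest region of all 6 libraries in kb (log axis); right, mean control pileup against local background over the library-wide rate (both log axes). Flat members have a median distance of 17.4 kb and raised members one of 1.63 kb.

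On flat ground, the absence of a peak sets an approximate limit on the ATF4KD level. The tag numbers were taken where the local background about equalled the library-wide rate. There, a peak needed 10, 9 and 10 tags in ATF4KD libraries 1 to 3 to reach a −log10 q of 2. This was 3.98, 4.19 and 3.98 times the rate. In the controls, 22, 21 and 23 tags were needed to reach 10, or 6.90, 7.53 and 6.53 times the rate. For the 296 flat members, the highest ratio of ATF4KD to control level that stays below 2 at that background was a median of 0.373 (quartiles 0.316 and 0.414, highest 0.520). Listed ATF4KD peaks below 2 at flat members reached 13, 10 and 11 tags in libraries 1 to 3, so the limit is not strict. The narrowest of those peaks was 150 bp, and pileups too narrow to be listed are not covered. The 17908 kept regions on flat ground had a measured ratio with a median of 0.672 and quartiles of 0.572 and 0.783. The median limit of the members lay below the lower quartile of the kept regions, a gap that the rule itself favours. On raised ground no such limit was computed, because the caller's threshold there follows a local background that the ATF4KD lists do not give where no peak is listed. Among the 111 members with a background of at least 5 times the rate, 100 (90.1%) had no listed ATF4KD peak, against 166 of 296 (56.1%) on flat ground.

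By location, 30 members (6.05%, exact 95% binomial interval 4.12 to 8.52) lay within 1 kb of an end of a protein-coding gene. This covers counting error only. The share was 23.2% for kept regions, 21.7% for all strong regions and 8.73% for all merged regions. A gene body held 244 members (49.2%), against 38.0% of kept regions, and 222 (44.8%) lay between genes, against 38.8%. At over 100 kb from any gene end lay 21.6% of members and 17.7% of kept regions. Within the band of lowest control values from 10 to 15, 5.45% of 330 members and 6.52% of 4814 kept regions were at a gene end, 48.2% and 46.2% in a gene body, and 46.4% and 47.3% between genes. The order over 100 kb turned round in the band, with 21.8% of members (interval 17.5 to 26.7) and 26.5% of kept regions (25.3 to 27.8).

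**Figure D4:**
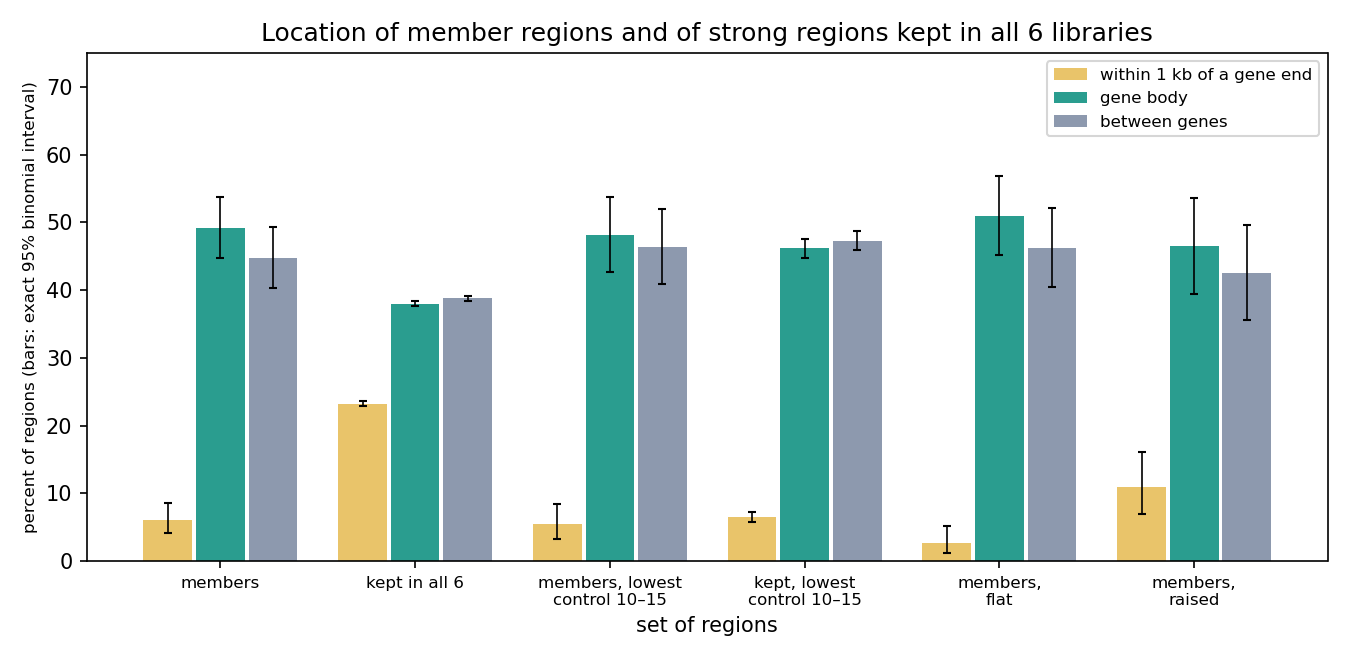
Percent of regions within 1 kb of a gene end, in a gene body and between genes, for members and kept regions, for both in the band of lowest control −log10 q from 10 to 15, and for flat and raised members; error bars are exact 95% binomial intervals (counting error). The gene end share is 6.05% for members and 23.2% for kept regions, but 5.45% and 6.52% within the band.

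At a wider distance the shares in the band lay further apart. Within 5 kb of a gene end lay 24.8% of members (interval 20.3 to 29.9) and 16.4% of kept regions (15.4 to 17.5). Among raised regions of the band, 51.2% of 127 members and 30.8% of 1352 kept regions were within 5 kb, and among flat ones 8.37% of 203 members and 10.8% of 3462 kept regions. These raised members also had a higher background than the raised kept regions, a median of 5.63 against 2.58 times the rate. Their widths differed too, with a median of 288 bp for raised members and 589.5 bp for raised kept regions. These are merged widths, which ATF4KD peaks can widen at kept regions only. A region of all 6 libraries was within 10 kb of 98.4% of the raised members and 91.1% of the raised kept regions of the band. Regions of 1 line share libraries and neighbours, so they are not replicates and no test over regions was made.

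At gene ends, 22 of the 30 members were of the raised kind and 8 of the flat kind, and 21 had no listed ATF4KD peak. A member 0.617 kb from an end of NMRK1, a kinase gene of NAD synthesis, at chr9:75087374-75087538 was 165 bp wide and 0.08 kb from a region of all 6 libraries. No ATF4KD library listed it, and the controls had 200, 166 and 235 tags. It ceased to be a member when peaks up to 100 bp apart were joined. At TUBB3, a tubulin gene of neurons, no ATF4KD library listed a peak and the controls had 198, 170 and 223 tags, at a local background of 24.6 times the rate. PGRMC2 (a haem-binding membrane protein gene), SERTAD2 and DHRS7B had members 0.928, 0.879 and 0.331 kb from an end, with 98 to 165 control tags at the first pair and 65, 85 and 65 at DHRS7B, and no ATF4KD peak at any of the 3.

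The flat kind at gene ends was smaller in tags. PSME3IP1, a proteasome activator partner gene, had a member at its end at chr16:57152070-57152639 with no listed ATF4KD peak and 39, 44 and 49 control tags. PDGFB, a growth factor gene, held one 0.954 kb from its end at chr22:39224313-39225044, with no listed ATF4KD peak and 38, 51 and 45 control tags. Both stood at a local background of 1.08 times the rate.

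Members were narrower than other strong regions, with a median width of 465.5 bp and a range of 163 to 1594 bp. Kept regions had a median of 873 bp, and kept regions of the band from 10 to 15 had 598 bp against 434.5 bp for members of that band. Part of this gap is built in, since ATF4KD peaks could widen a kept region but, by the rule, not a member. The strongest peak in controls 1 to 3 had a median width of 348.5, 330.5 and 311.5 bp at members of the band. At its kept regions these widths were 433, 427 and 419 bp. A single summit in every control was found at 58.7% of members and 22.4% of strong regions, and in the band at 62.1% of members and 43.8% of kept regions. Among the widest were those near CTNNA2 (1594 bp, at 1024 kb), in LRRTM4 (1238 bp), near FSIP2 (1229 bp) and in GATB (1156 bp). LRRTM4 encodes a synaptic adhesion protein, and its member had no listed ATF4KD peak and 32, 33 and 33 control tags. Near CTNNA2, a catenin gene, ATF4KD library 2 had 6 tags and the others no listed peak, against 31, 36 and 27 tags in the controls.

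Few members had another member close by, and no set of equal size was drawn for comparison. Another member was within 50 kb of 26 members (5.24%) and within 10 kb of 8, and the median distance to the next member was 1680 kb. Kept regions of the band from 10 to 15 had another of their set within 50 kb in 22.4%, but that set is larger and the shares are not comparable as they stand. With gaps of up to 100 kb, 453 members stood alone, 20 pairs formed and 1 run held 3. That run spanned 63.3 kb at chr22:50473292-50536546. Its members lay in SBF1, in TYMP (thymidine phosphorylase) 0.491 kb from SCO2 (cytochrome oxidase assembly), and 3.83 kb from CIMAP1B. ATF4KD listed the first and second in no library and the third in library 3 with 25 tags, against control tags of 123, 112 and 116, of 147, 136 and 150, and of 88, 68 and 105. Pairs included those in TBX15 at 2.05 kb and in NEGR1 at 13.7 kb from each other.

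Regions beside the members were lower in ATF4KD by about as much as regions elsewhere. The nearest regions of all 6 libraries within 50 kb of a member, 444 regions, had a median level of 19.1, 22.3 and 22.3 times the library-wide rate in ATF4KD and 33.9, 42.3 and 31.8 times in the controls. Their median ratio was 0.683, beside 0.686 for every region of all 6 libraries. Within 10 kb, 269 neighbours had a median ratio of 0.702. Neighbours at 2 or more in all 6 libraries were asked for, so a neighbour lost in ATF4KD could not enter this comparison.

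By chromosome, the share of strong regions that were members was highest on chromosome 13, at 1.68% (17 of 1014, interval 0.980 to 2.67), and lowest on chromosome 19, at 0.415% (9 of 2168, interval 0.190 to 0.787). Chromosome 1 held the most members, 54. The lower bound for chromosome 13 lay above the overall 0.864%, and the upper bound for chromosome 19 lay below it. These are the extremes of 22 chromosomes and were not tested.

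**Figure D5:**
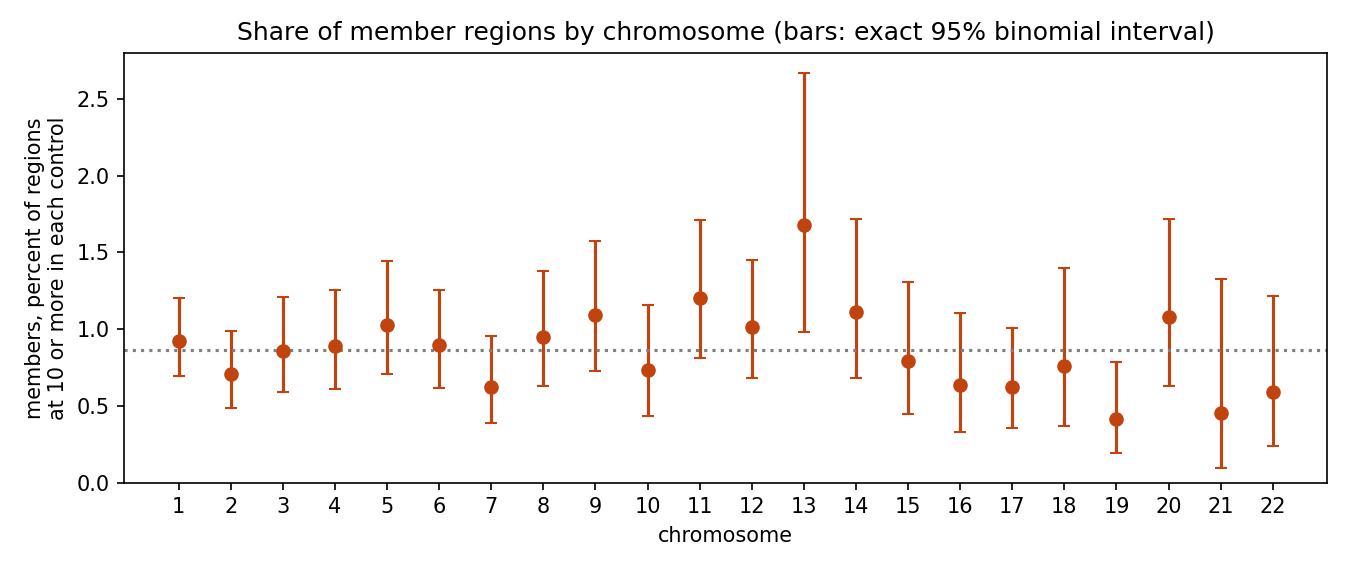
Members as a percent of the strong regions of each chromosome; error bars are exact 95% binomial intervals (counting error) and the dotted line is the share over all 22 chromosomes, 0.864%. Chromosome 13 is the highest at 1.68% and chromosome 19 the lowest at 0.415%.

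Few members, like few strong regions, stood at genes of the lists used here. The counts are small, and no excess or lack was tested. For 11 members (2.22%) the nearest protein-coding gene, or a gene the region lay in, belonged to 1 of 8 lists. This was so for 978 strong regions (1.70%), and in the counts by list both cases are called nearest. No member was nearest to any of 41 ATF4 target genes, where 148 strong regions (0.258%) were, and 1 of these genes lay within 100 kb of a member, DDIT4 at 64.8 kb. DDIT4 encodes an inhibitor of mTORC1, and the member nearest to it is the one in ASCC1. The next distances were 131 kb for GDF15, 136 kb for SHMT2, 140 kb for HMOX1 and 143 kb for VEGFA. The member nearest to VEGFA, a vascular growth factor gene, is the one in GTPBP2. The nearest member to ATF4 itself was 295.5 kb away, to NFKB2 904 kb, to RELB 5397 kb, to BACH1 6606 kb, to EP300 1868 kb and to CREBBP 1571 kb. No member was nearest to any of 10 coactivator genes, as 43 strong regions (0.0749%) were, although BRD2, a bromodomain reader gene, had one 13.1 kb away. Distance along a chromosome does not show which gene a region acts on.

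Of 35 NF-kB genes, nearest to 1 member (0.202%) and 152 strong regions (0.265%), PLEK, a substrate of protein kinase C, had a member, 22.8 kb away, with no listed ATF4KD peak and 67, 63 and 67 control tags. Of 20 genes of BACH1 and NRF2, nearest to 1 member (0.202%) and 117 strong regions (0.204%), NFE2L3, a relative of NRF2, had one 297 kb away with none in ATF4KD and 111, 117 and 154 control tags. Of 28 plasma cell and myeloma genes, 2 were nearest to a member (0.403% of members, against 283 strong regions or 0.493%), and 3 lay within 50 kb of one. JCHAIN, the antibody joining chain gene, lay 15.1 kb from a member that had another gene nearer. POU2AF1, a coactivator of antibody gene transcription, held a member 9.66 kb from its end, with 13 tags in ATF4KD library 3 alone against 39, 65 and 59 in the controls. FCRL5, a surface receptor of plasma cells, lay 15.8 kb from one with 20 tags in ATF4KD library 2 alone, against 67, 59 and 64 in the controls.

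Of 27 bZIP genes, CREM and NFIL3 held a member each (0.403% of members, against 113 strong regions or 0.197%). NFIL3, a bZIP repressor, had no listed ATF4KD peak at chr9:91419283-91419775, against 83, 103 and 95 control tags. CREM, a cAMP-responsive factor, had 7 and 9 tags in ATF4KD libraries 1 and 3 and no listed peak in library 2, against 23, 37 and 25 in the controls. Of 15 autophagy genes, 3 were nearest to a member (0.605% of members, against 62 strong regions or 0.108%). ATG3 and ATG5, of the conjugation machinery that builds autophagosomes, held one each, with no listed ATF4KD peak and 32, 32 and 29 control tags at ATG3 and 40, 49 and 53 at ATG5. WIPI1, a lipid-binding autophagy protein, was 4.15 kb from a member inside the neighbouring PRKAR1A, with none in ATF4KD and 104, 101 and 115 control tags. Of 15 genes of folding in the endoplasmic reticulum, 2 were nearest to a member (0.403% of members, against 87 strong regions or 0.152%). DNAJC3, a co-chaperone, held one with none in ATF4KD and 38, 28 and 38 control tags. EDEM1, of the disposal of misfolded proteins, was 517 kb from one with 7 and 8 tags in ATF4KD libraries 2 and 3 and no listed peak in library 1, against 31, 36 and 23 in the controls.

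Regions on either side of each threshold had nearly equal values. Just inside the limit of 10 stood regions near PTGDS, in MYBPC2 and in RTL1, with lowest control values of 10.009, 10.018 and 10.02, and just outside it regions in CNTNAP2, ARMC8 and GALNT7, with 9.96, 9.96 and 9.91. Just inside the limit of 2 stood regions near KRT80, in MCF2L and near YWHAZ, with highest ATF4KD values of 1.9956, 1.9936 and 1.9915, and just outside it regions near ABLIM3, in HAAO and in KAZN, with 2.002, 2.015 and 2.021.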

How the data were processed

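ATAC-seq peak lists of 3 ATF4KD and 3 control libraries of KMS-11 were used, grouped by title and treatment label. Peaks were called with MACS2 on hg38 in each library, per the submitters' processing notes; the version, settings, aligner, read filters and any Tn5 shift: not given in the sources used here. The deposited fold is a ratio of pileup to local background, each with 1 added. The deposited −log10 p and −log10 q are from the caller's test within a library, so they move with depth, and summits with a −log10 p of at least 2 are listed. The deposited score was not used.

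The deposited fold and −log10 p gave pileup and local background back for 100% of summits, within 0.01, by a script tested on simulated data. The most common local background served as the library-wide rate and as the depth. Gene ends came from 19122 protein-coding genes of RefSeq on GRCh38.p14, the assembly of hg38; both ends count, since strand was not used. Python 3.11.15, pandas 2.3.3, numpy 2.4.6, scipy 1.17.1 and matplotlib 3.10.9 were used.

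The members and the gene lists were chosen with earlier results of these data known. The named regions are the 24 members with the highest lowest-control −log10 q, up to 10 within 1 kb of a gene end, up to 4 per list, runs of at least 3, the 5 widest, and 3 on each side of each threshold, without genes lacking an official symbol. JCHAIN, BRD2, the pairs in TBX15 and NEGR1, CCDC183, GYPB and the distances of the title's genes stand outside that rule and were chosen after their values were seen. The same holds for DDIT4, GDF15, SHMT2, HMOX1 and VEGFA. The planned motif search in 300 bases around each summit needs a genome and was not run; 250 bases before RefSeq starts were searched instead. No test was made, since the rule used the contrast between the groups. A named region and a marker gene are not reported here. Chromosomes X and Y are left out of the main results.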

Additional observations from a re-analysis of the deposited data

How the results depend on the processing

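With the main rule, 496 members were found, with 6.05% at a gene end, 49.2% in a gene body, a median width of 465.5 bp, 5.24% with another member within 50 kb and 59.7% on flat background. A control limit of 5 gave 1884 members, 416 bp, 15.1% near another and 65.8% flat. A control limit of 20 gave 75 members, 10.7% at a gene end, 44% in a gene body, 520 bp and 0 near another. Asking for no listed ATF4KD peak gave 307 members, 406 bp, 2.61% near another and 54.1% flat. An ATF4KD limit of 5 gave 2157 members, 560 bp, 13.7% near another and 68.8% flat. Thresholds by rank gave 208 members, all among the 496, with 2.88% near another and 52.9% flat. Merging every listed peak or shortening the lists to equal length left the 496 in place, joining peaks up to 100 bp apart gave 488, and adding chromosome X gave 512.

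Leaving out 1 library gave 617 to 1045 members. Each such step drops a condition of the rule, so more regions can enter, and 495 or 496 of the 496 members stayed. The number was 753, 826 and 1045 without ATF4KD 1, 2 and 3, and 760, 617 and 874 without control 1, 2 and 3; all but control 2 moved it by over 1.5 times. The share at a gene end was then 4.92% to 6.32%, in a gene body 47.8% to 49.4%, near another 6.11% to 7.94% and on flat background 59.97% to 63.7%, and the median width 399 to 479 bp. A gene end within 5 kb gave 26.0%, all genes of the annotation gave 58.1% in a gene body, and a distance of 100 kb gave 8.67% near another. Of 54 named regions, 32 stayed members at a control limit of 20, 31 with no listed ATF4KD peak and 39 by rank. No paired analysis was possible because the results come from no test. The cause of the movements in the shares and widths was not tested.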
